A study of Mus musculus with 4 samples.

Results

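The receptors through which ovarian steroids, prolactin and growth hormone reach the mammary gland were compared between mice with and without miR-21. The group holds 6 genes of the 22479 named genes in the deposited table: the receptor genes *Esr1*, *Pgr*, *Prlr* and *Ghr*, and *Greb1* and *Cited1*, which act with the estrogen receptor. They were taken by name, and each name has 1 row in the table. RNA came from mammary tissue of 4 mice of the mixed strain 129SV::FVB/N::C57BL/6, 2 wild-type mice (miR-21+/+) and 2 mice lacking miR-21 (miR-21-/-), all 2 months old by their labels and virgin by the study's description. The deletion is in the germline, so every cell of a miR-21-/- animal lacks the microRNA, and the tissue is whole gland with fat pad, stroma and epithelium. A stage of the estrous cycle is not given in the sources used here.

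Estrogen drives the growth of the mammary ducts through the receptor ERα, the product of *Esr1*, in a subset of luminal epithelial cells and in stroma. Those luminal cells answer with *Pgr*, the progesterone receptor, and pass the signal on to their neighbours through secreted factors such as amphiregulin (*Areg*) and RANKL (*Tnfsf11*). *Greb1* is an estrogen-induced partner of ERα, and *Cited1* is a transcriptional co-regulator that binds ERα and CBP/p300. *Prlr* and *Ghr* encode the cytokine-type receptors of prolactin and growth hormone, which signal through the kinase JAK2 and the factors STAT5A and STAT5B. Growth hormone acts on the ducts mainly through stromal IGF-1.

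The table gives 1 FPKM value per genotype (a level scaled for transcript length and for library size), in which the authors combined the 2 mice. Spread between mice is therefore not visible, no difference below has a replicate check or a p-value, and the depth of the libraries is unknown. Differences are log2 ratios of miR-21-/- over miR-21+/+, without a pseudocount, and a pair of levels gives the miR-21+/+ value first. Of the named loci, 9651 lay above 5 FPKM in one or both genotypes, with a median log2 ratio of −0.03. The middle 95% of them lay between −0.75 and 0.73. By sign alone, 4160 of the 9651 were higher and 5491 were lower in miR-21-/- glands as deposited. At 2-fold or more, 1.25% of the 9651 were higher and 1.42% were lower in miR-21-/- glands. Scaling the columns to equal sums over all loci, unnamed ones included, moves every log2 ratio by −0.63. It turns positive ratios below that size negative and changes the counts from 121 higher and 137 lower to 28 and 881. This shift comes from the unnamed loci. Summed FPKM were 759295 and 1175600 over all loci, but 380567 and 355385 over named loci alone. Scaling to equal sums over named loci moves the ratios the other way, by 0.10. The deletion itself could not be checked in these values. The miR-21 gene shares its row with its neighbour *Vmp1*, at 42.5 and 68.2 FPKM, and the table does not separate them. In whole tissue, fewer cells of a type and less RNA per cell cannot be told apart.

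The deleted microRNA and the only 7-letter seed match to it in the annotated 3′ UTRs of the 6 genes are shown first. Mature miR-21-5p (RefSeq, GRCm38.p6, chr11:86584120-86584141, minus strand) has its seed, bases 2 to 8, in capitals. The *Pgr* stretch (mm9, chr9:8947175-8947196, plus strand) has the matching 7 letters in capitals. They pair with the first 7 bases of the microRNA and leave out base 8 of the seed.
miR-21-5p: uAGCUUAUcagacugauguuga
*Pgr* 3′ UTR: gcaagactcatgTAAGCTAtag
For each gene the longest 3′ UTR of the annotation was searched, from 76 nt in *Cited1* to 7742 nt in *Prlr*. None of the 6 held ATAAGCT, which pairs with the whole seed and occurs in 6.10% of the longest 3′ UTRs of 19915 genes. The match TAAGCTA, which covers the seed without base 8, was found once, at position 181 of the 1603 nt 3′ UTR of the transcript Pgr-201. With that match counted too, 9.59% of all genes had a site. The site lies in no coding exon of another *Pgr* transcript, and the other annotated *Pgr* 3′ UTRs do not hold it. Pgr-201 has a shortened coding sequence of 1197 nt, beside 2781, 2286 and 2778 nt in Pgr-001, Pgr-002 and Pgr-202. The deposited *Pgr* level does not separate these transcripts. The search covers annotated 3′ UTRs only, and the *Pgr* locus of the table reaches 26.6 kb beyond the end of the gene in the GENCODE annotation of mm9.

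By level, in FPKM, the 6 genes spanned 3 orders of magnitude. In miR-21+/+ glands the order was *Ghr*, *Cited1*, *Prlr*, *Esr1*, *Pgr* and *Greb1*. In miR-21-/- glands it was *Ghr*, *Prlr*, *Pgr*, *Esr1*, *Cited1* and *Greb1*, so that *Pgr* moved up by 2 places and *Cited1* moved down by 3. Whether neighbours in either order differ beyond the spread between mice could not be examined. At the limit of 5 FPKM, 5 of the 6 genes passed, *Pgr* through miR-21-/- glands only, and *Greb1* did not.

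**Figure D1:**
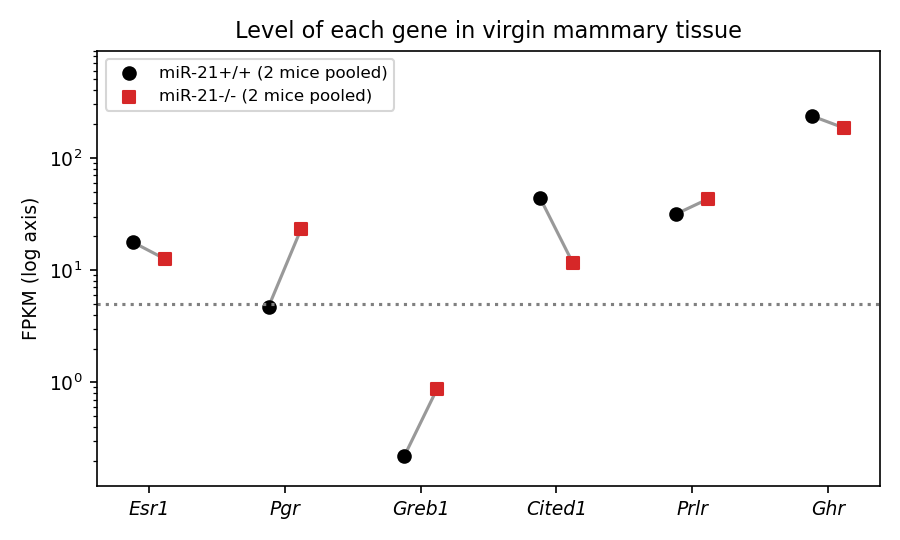
FPKM of the 6 genes on a log axis, black circles for miR-21+/+ and red squares for miR-21-/- glands, each point 1 deposited value combining 2 mice, with the 5 FPKM limit dotted. *Pgr* goes from 4.71 to 23.3 FPKM and *Cited1* from 43.9 to 11.7 FPKM, while the deposited values of *Ghr*, *Prlr* and *Esr1* are within 1.5-fold.

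*Pgr* (chromosome 9, 8899548 to 8992051 in mm9) had the largest ratio of the group. Its level was 4.71 FPKM in miR-21+/+ and 23.3 FPKM in miR-21-/- glands, 4.94-fold higher, a log2 ratio of 2.30. Of the 9651 named loci, 9 had a higher ratio. *Pgr* is among the 9651 only through its miR-21-/- level, so the limit itself fixed its direction there. In miR-21+/+ tissue *Pgr* stood at 0.266 times the level of *Esr1*, the receptor that induces it, and in miR-21-/- tissue at 1.86 times that level.

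*Esr1* (chromosome 10, 5340925 to 5734708) went the other way. It had 17.7 FPKM in miR-21+/+ and 12.5 FPKM in miR-21-/- glands, a log2 ratio of −0.50. This is under 2-fold and inside the middle 95% of named loci, of which 5.48% had a lower ratio. The authors' table marks the Cuffdiff comparison of *Esr1* as failed, as it does for 1001 of the 9651 loci, and its 2 values are given as deposited.

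*Greb1* (chromosome 12, 16677421 to 16807692) was barely detected. The values were 0.220 FPKM in miR-21+/+ and 0.867 FPKM in miR-21-/- glands, a log2 ratio of 1.98. The difference in level was 0.646 FPKM. With a pseudocount of 1 the log2 ratio was 0.61, so the fold rests on values close to 0.

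*Cited1* (chromosome X, 99442716 to 99447608) was the member with the lowest ratio. It was the second most abundant gene of the group in miR-21+/+ glands, at 43.9 FPKM, and had 11.7 FPKM in miR-21-/- glands. The level was thus 3.77-fold lower, a log2 ratio of −1.91, and 47 of the 9651 named loci had a lower ratio. *Cited1* and *Pgr* thus differed in opposite directions. The ratio of *Cited1* to *Pgr* levels was 9.32 with miR-21 and 0.501 without it.

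*Prlr* (chromosome 15, 10105782 to 10267020) was higher without miR-21 as deposited, and had a log2 ratio of −0.18 under equal sums over all loci. It had 31.5 FPKM in miR-21+/+ and 43.2 FPKM in miR-21-/- glands, 1.37-fold, a log2 ratio of 0.46. Of the named loci, 5.76% had a higher ratio, so the value lies inside the middle 95%.

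The mouse prolactin receptor is made in a long form, which activates STAT5, and in short forms with a truncated cytoplasmic tail, and their last exons lie in different rows of the table. The last exon of Prlr-005, whose coding sequence of 1827 nt is the longest, falls inside the named *Prlr* row. Those of Prlr-001, Prlr-002, Prlr-003 and Prlr-009, with coding sequences of 879 to 933 nt, fall inside an unnamed row (chr15:10269440-10278972). That row had 5.22 FPKM in miR-21+/+ and 6.71 FPKM in miR-21-/- glands, a log2 ratio of 0.36. Both rows were thus higher in miR-21-/- tissue as deposited, by 1.37-fold and 1.29-fold. The exons that all forms share are in the named row, so its value is not that of the long form alone.

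*Ghr* (chromosome 15, 3267697 to 3533230) was the most abundant gene of the group, with a level above 98.9% of the detected named loci in miR-21+/+ glands. It had 237 FPKM in miR-21+/+ and 184 FPKM in miR-21-/- glands, a log2 ratio of −0.36. A lower ratio was found for 9.47% of the named loci. The row covers both the full receptor, with a coding sequence of 1953 nt, and the transcript of 894 nt that encodes the soluble growth hormone binding protein, and the table does not separate them. *Ghr* stood at 7.52 times the level of *Prlr* in miR-21+/+ and at 4.27 times in miR-21-/- tissue.

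Markers of several cell types differed between the genotypes. All 8 luminal epithelial markers (*Krt8*, *Krt18*, *Epcam* and others) were higher in miR-21-/- glands, with a median log2 ratio of 0.42 (−0.21 under equal sums over all loci), a range of 0.15 to 0.72 and summed levels of 654 and 875 FPKM. The 6 basal markers with a row of their own were also higher, with a median of 0.66 (0.03 under equal sums over all loci). Their sums were 314 and 504 FPKM. Their highest ratio, 1.47, was that of the oxytocin receptor *Oxtr*, at 17.5 FPKM in miR-21+/+ and 48.7 FPKM in miR-21-/- glands. Of 9 fat cell markers, 8 were lower, with a median of −0.40 and sums of 19275 and 14476 FPKM, the exception being *Lep* at 1.29. No marker of these 3 lists was at 0 in either genotype.

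Set beside these lists, *Prlr* lay close to the luminal median and *Ghr* close to the fat cell median. The ratio of *Prlr* exceeded the luminal median by 0.03, and 4 of the 8 luminal markers had a higher one. It differed from the basal median by −0.20 and from the fat cell median by 0.86. The ratio of *Ghr*, which fat cells express strongly, exceeded the fat cell median by 0.04. It differed from the fibroblast median by −0.20, and 5 of 6 fibroblast markers had a higher one. *Pgr* and *Cited1* lay outside the epithelial lists on opposite sides. *Pgr* exceeded the luminal median by 1.88 and none of the 8 luminal or 6 basal markers had a higher ratio, whereas *Cited1* differed from the luminal median by −2.34, with a ratio below all of these markers. *Esr1* differed from the luminal median by −0.93 and from the fat cell median by −0.10. The part of tissue composition in these ratios was not tested.

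**Figure D2:**
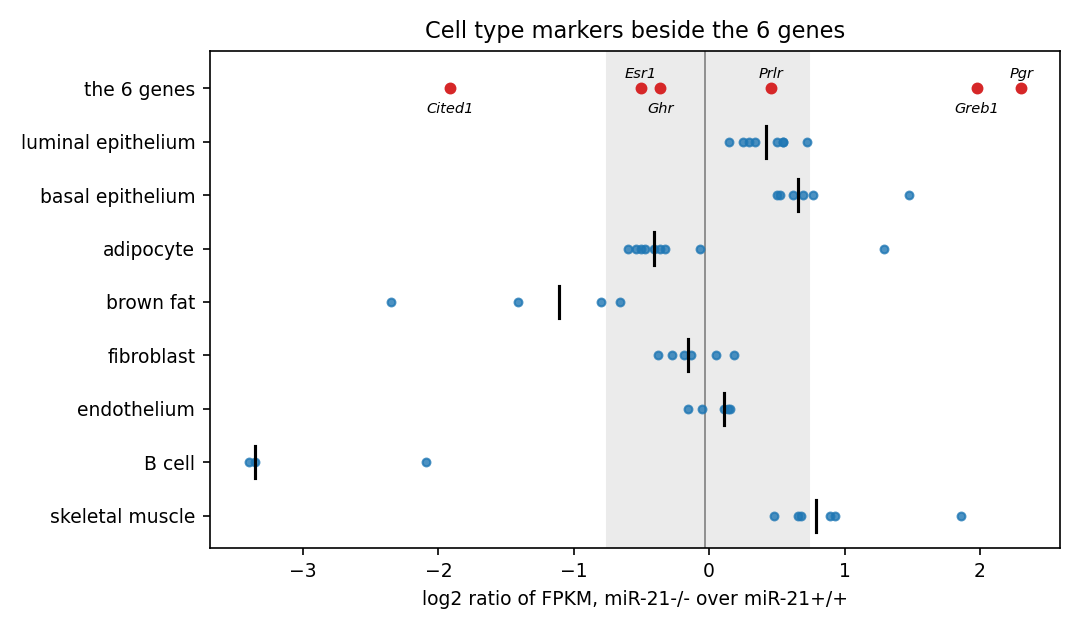
Log2 ratio of FPKM, miR-21-/- over miR-21+/+, for the 6 genes (red) and for markers of 8 cell types above 5 FPKM in at least one genotype (blue, 1 point per gene, black bar the median). Grey shows the middle 95% of 9651 named loci. *Pgr*, *Greb1* and *Cited1* lie outside the luminal and basal markers, and *Prlr* lies among the luminal ones.

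Markers of other tissue in the gland differed as well. The median log2 ratio of B cell markers was −3.36, or −2.09 with a pseudocount of 1. The 3 markers were above 5 FPKM in miR-21+/+ glands only, and all were lower without miR-21, as were the 4 brown fat markers above that limit, with *Ucp1* at 43.3 and 8.48 FPKM. Skeletal muscle markers were higher, with a median log2 ratio of 0.79 (0.15 under equal sums over all loci). Fibroblast and endothelial markers had medians of −0.16 and 0.11. Summed over all markers with a row of their own, also those under 5 FPKM, brown fat had 243 and 119 FPKM, B cells 27.1 and 4.29 FPKM, and muscle 1023 and 1690 FPKM.

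Genes downstream of and around these receptors were taken from 9 lists of 102 genes in all. Of the 65 with a row of their own above 5 FPKM, 4 were higher and 3 lower at 2-fold or more, 6.15% and 4.62%, beside the 1.25% and 1.42% of all named loci. These counts depend on low values and on scaling, since they were 1 and 1 with over 5 FPKM in both genotypes and 0 and 12 under equal sums over all loci. The 4 were *Wisp2*, *Rspo1*, *Vdr* and *Cited4*, and the 3 were the milk protein genes *Csn1s2a*, *Csn2* and *Wap*. All 7 had one genotype below 10 FPKM, and *Cited4* and *Csn2* alone were above 5 FPKM in both. The others passed the limit only through the genotype in which they were higher. The lists were chosen with earlier results of these data known, so their shares beside those of all named loci are a description only.

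**Figure D3:**
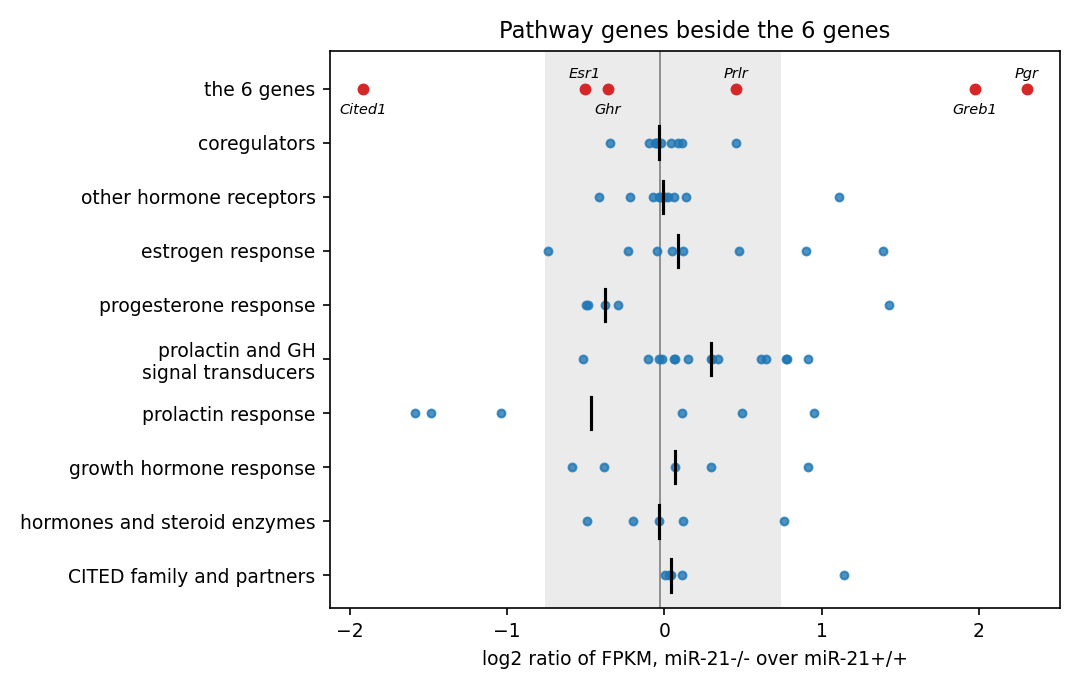
Log2 ratio of FPKM, miR-21-/- over miR-21+/+, for the 6 genes (red) and 9 lists of pathway genes above 5 FPKM in at least one genotype (blue, 1 point per gene, black bar the median), with the middle 95% of 9651 named loci in grey. Medians run from −0.46 for prolactin response to 0.30 for signal transducers.

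Messages of proteins that work with the steroid receptors had no common direction. Across the 10 measured coregulators 4 were higher and 6 lower, the median log2 ratio was −0.03 and none reached 2-fold. *Foxa1*, the pioneer factor that opens chromatin for ERα, had 29.5 FPKM in miR-21+/+ and 23.2 FPKM in miR-21-/- glands. *Nrip1*, an estrogen-induced corepressor, had the highest ratio of the list, 0.46, from 14.6 FPKM in miR-21+/+ glands. The corepressor gene *Ncor1* had 28.5 and 27.5 FPKM. *Gata3*, the luminal fate factor, shares its row with 9230102O04Rik, which had 19.6 and 38.8 FPKM, and the table does not separate them.

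Other hormone receptors had no common direction, with 5 of 10 higher and a median of −0.01. The orphan receptor gene *Esrra* shares its row with *Prdx5* and was not counted. The glucocorticoid receptor *Nr3c1* had 30.6 and 29.9 FPKM, and its comparison is marked as failed. *Esr2*, which encodes ERβ, was near 0 at 0.0787 and 0.0603 FPKM. The exception was *Vdr*, the vitamin D receptor, with 4.07 FPKM in miR-21+/+ and 8.79 FPKM in miR-21-/- glands, a log2 ratio of 1.11. The membrane progesterone binding proteins *Pgrmc1* and *Pgrmc2*, with 96.5 and 46.2 FPKM in miR-21+/+ glands, did not share the direction of *Pgr* and had ratios of −0.22 and −0.41.

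Genes that estrogen induces did not share a direction. Of 8 above 5 FPKM, 5 were higher and 3 lower, with a median of 0.08. *Areg*, the ligand through which ERα drives duct growth, had 44.5 FPKM in miR-21+/+ and 83.0 FPKM in miR-21-/- glands, a log2 ratio of 0.90. *Wisp2* had 2.92 and 7.68 FPKM, a ratio of 1.39, and *Xbp1*, a regulator of the unfolded protein response, had 84.0 and 117 FPKM. In the other direction, *Stc2*, a secreted glycoprotein hormone, had 44.7 and 26.8 FPKM, a ratio of −0.74. *Ccnd1*, the cyclin that pushes luminal cells into division, had 49.1 and 41.8 FPKM. The most abundant genes of the list in miR-21+/+ glands, *Igfbp4*, which binds insulin-like growth factors, and the chemokine gene *Cxcl12*, had ratios of −0.05 and 0.12. *Tff1* and *Tff3* were listed at 0 in both genotypes.

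The progesterone response genes did not follow the level of the receptor as a list. Of 5 above 5 FPKM, 4 were lower in miR-21-/- glands, and the median was −0.38. *Rspo1*, a Wnt amplifier of the gland, was the one above, with 2.02 and 5.44 FPKM, a ratio of 1.43. *Tnfsf11*, the RANKL gene and the best known paracrine target of progesterone here, was under the limit and not counted. It was low, at 0.263 FPKM in miR-21+/+ and 0.554 FPKM in miR-21-/- glands, a ratio of 1.08 between values close to 0. *Wnt4*, another paracrine target, had 4.40 and 3.58 FPKM, and *Calca* had 1.06 and 1.13 FPKM. *Fkbp5* and *Per1*, which glucocorticoids induce as well, had ratios of −0.50 and −0.49. *Zbtb16*, also among the 4 lower, had a ratio of −0.29 in a comparison marked as failed.

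Transducers of prolactin and growth hormone were mostly higher as deposited. Of 15 above 5 FPKM, 11 were higher, with a median of 0.30 (−0.33 under equal sums over all loci), and none reached 2-fold. Among the 11, *Cish* and *Socs3* passed the limit through miR-21-/- glands only, which fixed their direction. With over 5 FPKM in both genotypes the median was 0.15. *Stat5a* had 22.8 FPKM in miR-21+/+ and 39.0 FPKM in miR-21-/- glands, a ratio of 0.78, but the table marks its comparison as failed. *Stat5b* had 20.5 and 26.0 FPKM, and *Jak2*, the kinase bound to both receptors, had 13.8 and 17.0 FPKM. *Cish*, a feedback inhibitor that STAT5 induces, had 3.31 and 6.23 FPKM, and *Socs2*, another such inhibitor, had 7.54 and 9.27 FPKM, in a comparison also marked as failed. The adaptor gene *Shc1* shares its row with *Pygo2* and was not counted. *Stat3*, which drives involution after weaning, had 36.6 and 57.3 FPKM, a ratio of 0.64.

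Prolactin target genes were divided. *Elf5*, the alveolar fate factor, had 18.6 FPKM in miR-21+/+ and 36.0 FPKM in miR-21-/- glands, a ratio of 0.95. The milk protein genes *Csn1s2a*, *Wap* and *Csn2* had ratios of −1.59, −1.48 and −1.04, from levels of 13.3, 7.09 and 14.8 FPKM in miR-21+/+ glands. The casein genes *Csn3* and *Csn1s1* had ratios of 0.11 and 0.49. The list's median of −0.46 thus falls between groups of 3, and it was 0.30 with a minimum of 5 FPKM in each genotype, which leaves out *Csn1s2a* and *Wap*.

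Growth hormone targets were divided as well. *Igf1*, its main mediator in the stroma, had 38.5 FPKM in miR-21+/+ and 29.6 FPKM in miR-21-/- glands, a ratio of −0.38, close to the −0.36 of *Ghr*. *Igfals*, which stabilises circulating IGF-1, had 13.3 and 8.85 FPKM, a ratio of −0.59, and *Igfbp3* had 24.1 and 25.3 FPKM. *Cish* and *Socs2*, given above, are in this list too.

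Of 8 listed relatives and partners of CITED1, ERα aside, 5 were measured, and 4 of them had ratios between 0.00 and 0.11, which turn negative under equal sums over all loci. *Cited4* had 8.10 FPKM in miR-21+/+ and 17.9 FPKM in miR-21-/- glands, a ratio of 1.15, opposite to that of *Cited1*. *Cited2* had 20.4 and 20.5 FPKM, and *Smad4*, a partner in TGF-β signalling, had 21.9 and 22.3 FPKM. The acetyltransferase genes *Ep300* and *Crebbp*, whose products CITED proteins bind, had ratios of 0.04 and 0.11.

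Loci around each gene were examined for differences that extend beyond it, within 500 kb and above 1 FPKM in at least one genotype. Around *Cited1*, 7 named loci had a median log2 ratio of 0.11 and a range of −0.63 to 0.39, far from −1.91. Around *Prlr*, the 4 other named loci lay between −0.17 and 0.07. Around *Esr1*, at −0.50, all 6 named loci were lower, from −0.41 to −0.03 with a median of −0.30. Of the 3 unnamed loci there, 2 were higher, with a highest ratio of 1.24. Among the 9651 named loci above 5 FPKM, 5491 were lower. Around *Ghr*, the 5 named loci had a median of −0.16 and a range of −0.52 to 0.01. One of them, *Sepp1*, which encodes the selenium carrier selenoprotein P, had 677 FPKM in miR-21+/+ and 480 FPKM in miR-21-/- glands, a ratio of −0.50. Of the 7 named loci near *Greb1*, *Atp6v1c2*, a proton pump subunit gene, was the only one at 2-fold or more, with 1.19 and 4.25 FPKM.

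*Pgr* had a different surrounding. The named neighbours *Trpc6* and *Arhgap42* had ratios of −0.03 and 0.69. The 16 unnamed rows above 1 FPKM were higher in miR-21-/- glands, by 1.94 to 5.01 where they were above 0 in miR-21+/+. All 16 were below 1 FPKM in miR-21+/+ and passed the limit through miR-21-/- glands only, so the limit itself fixed their direction. An unnamed row within the *Pgr* locus itself had 0.807 and 4.25 FPKM, a ratio of 2.40, close to the 2.30 of *Pgr*. The others share 1 locus, chr9:8689067-8752263, which ends 147 kb before *Pgr*. It holds 20 unnamed rows at any level, all higher in miR-21-/- glands, and 5 of them listed at 0 in miR-21+/+. Summed over these rows, the FPKM was 2.92 in wild-type and 48.1 in miR-21-/- tissue. Their relation to *Pgr* was not tested.

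**Figure D4:**
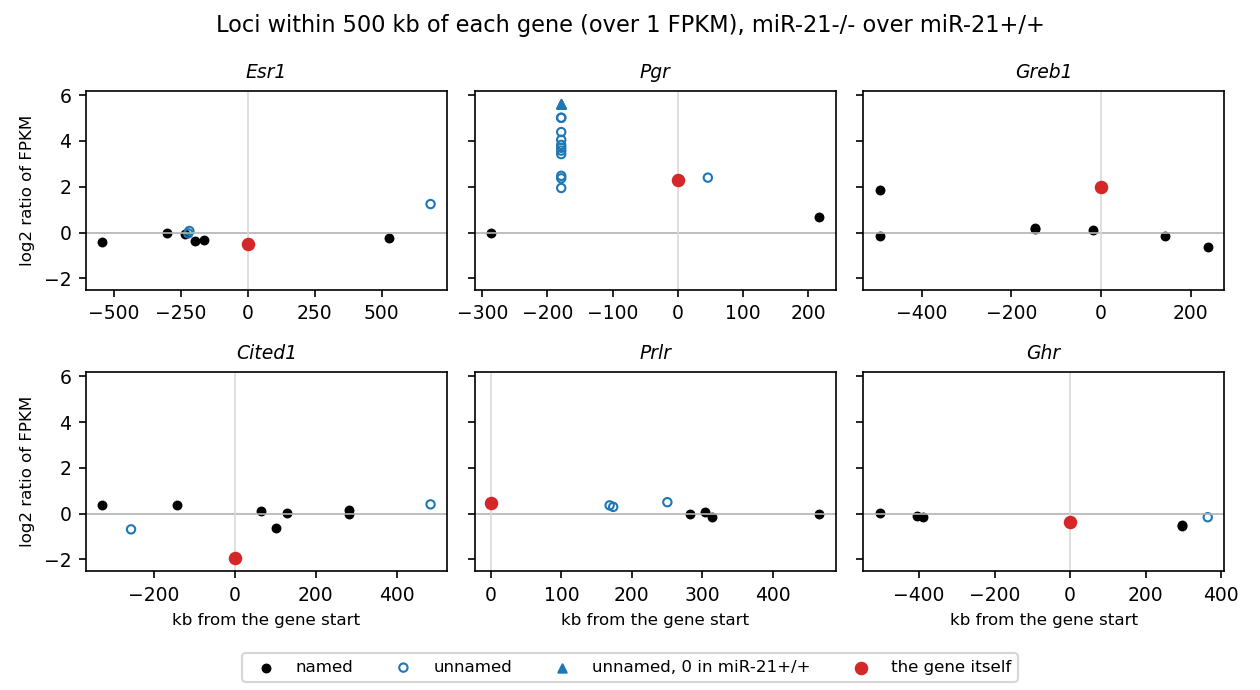
Log2 ratio of FPKM, miR-21-/- over miR-21+/+, of loci within 500 kb of each of the 6 genes and above 1 FPKM in at least one genotype, against the distance in kb of the locus midpoint from the gene start, positive in the direction of transcription. Black points are named and blue circles unnamed loci, triangles at the top of the *Pgr* panel mark loci at 0 in miR-21+/+, and rows of 1 shared locus are drawn at the same distance.

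The promoters were searched for the STAT site TTCNNNGAA, through which prolactin and growth hormone act on STAT5 target genes, and for the estrogen response element GGTCANNNTGACC and a single arm of it, GGTCA. RefSeq (GRCm38.p6) gives 13 promoter windows for the 6 genes, each from 250 bases before to 50 bases after a start, and both strands were read. The full estrogen response element was in none of them and in 0.0700% of all 32851 windows. A STAT site was in 1 window each of *Esr1* and *Prlr*, beside 8.30% of all windows, and both sites read TTCTAGGAA. Their surroundings are shown with the site in capitals, for *Esr1* (chr10:4709940-4710008, plus strand) and *Prlr* (chr15:10223766-10223834, plus strand).
*Esr1*: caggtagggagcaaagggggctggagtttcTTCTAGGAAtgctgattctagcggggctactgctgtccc
*Prlr*: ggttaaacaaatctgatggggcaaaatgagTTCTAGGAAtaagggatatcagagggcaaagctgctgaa
The sites begin at −188 and −110 relative to the starts of these *Esr1* and *Prlr* windows. Both genes also have a window further upstream, from chr10:4611739 and chr15:10176988, without a STAT site. As deposited, *Esr1* and *Prlr* had ratios of opposite sign, −0.50 and 0.46, both under 2-fold. Under equal sums over all loci both ratios were negative, −1.13 for *Esr1* and −0.18 for *Prlr*. The *Esr1* comparison is also marked as failed. Whether the sites bear on either ratio was not tested.

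The single arm was in 40.5% of all windows. *Greb1* had 1 at 1 start and 2 at the other, *Cited1* had 1 at each of 2 of its 3 starts and *Esr1* had 1 at 1 start, while the *Pgr* and *Ghr* windows had none of the 3 motifs. The *Greb1* start with 2 of them is shown with these in capitals (chr12:16757300-16757453, minus strand), as *Greb1* is a standard marker of estrogen action.
*Greb1*: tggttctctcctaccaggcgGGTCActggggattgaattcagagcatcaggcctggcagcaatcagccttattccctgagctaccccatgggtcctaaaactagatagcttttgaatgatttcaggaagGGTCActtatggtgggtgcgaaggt
These letters describe the windows only, and binding was not measured in this series.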

How the data were processed

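Poly(A) RNA of each mouse was sequenced as single-end reads on an Illumina HiSeq instrument. Per the study's methods and processing notes, the reads were aligned to mm9 with TopHat, and FPKM were estimated with Cufflinks. Program versions, gene annotation and normalization options are not given in the sources used here. The authors deposited 1 Cuffdiff table of 30506 loci with 1 FPKM value per genotype. A status word per locus, another column deposited by the authors, was read only for failed comparisons. The authors' fold changes, test statistics, p-values, q-values and calls were not used.

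FPKM were used unscaled. The 6 genes and all lists were chosen with earlier results of these data known. For each name the row with the highest mean FPKM was kept, and rows with several names counted for a list only where the list held every one of those names. Lists were described by counts at 2-fold or more and medians, over genes above 5 FPKM in at least one genotype, without a test. Genes named in the text are the 6 genes, list genes at 2-fold or more, the 2 most abundant of each list, and textbook partners or targets. A few genes of the lists are not reported here by name. No search for genes of like pattern was made, since 2 values give only a ratio. The planned fits with a value per mouse were not possible. Table starts count from 0, and coordinates are given counting from 1. 3′ UTRs came from the GENCODE annotation of mm9, promoters and miR-21 from RefSeq. Recovery of planted fold changes and motifs was tested on simulated data. Calculations used Python 3.11.15, numpy 2.4.6 and pandas 2.3.3, and figures matplotlib 3.10.9.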

Additional observations from a re-analysis of the deposited data

How the results depend on the processing

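No paired analysis was possible because each genotype has 1 deposited column combining its mice, and leaving out a mouse was not possible for the same reason. Depth is unknown. A ratio was taken as moved past 1.5-fold. *Pgr*, *Cited1* and *Greb1* kept their direction under all 7 alternatives run on each, but most of these could not have changed it. Each gene has 1 row, so summing rows repeats the deposited ratio, and a pseudocount cannot change a sign. Among the scalings, only equal sums over all loci shifts ratios by more than 0.10. The 3 genes stayed at 2-fold or more under all alternatives except a pseudocount of 1 for *Greb1* (0.61).

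Scaling both columns to equal sums over all loci shifted every log2 ratio by −0.63, owing to the unnamed loci. It gave 1.67 for *Pgr*, 1.35 for *Greb1*, −2.55 for *Cited1*, −1.13 for *Esr1*, −0.99 for *Ghr* and −0.18 for *Prlr*, which changed sign. The other 3 scalings shifted ratios by 0.03, 0.03 and 0.10. Under equal sums the list medians were −0.66 for coregulators, −0.64 for other hormone receptors, −0.55 for estrogen response, −1.01 for progesterone response, −0.33 for signal transducers, −1.10 for prolactin response, −0.56 for growth hormone response, −0.67 for hormones and steroid enzymes and −0.59 for the CITED list. The luminal median became −0.21, the basal median 0.03 and the skeletal muscle median 0.15. With over 5 FPKM in both genotypes, the median of the prolactin response was 0.30 and that of the signal transducers 0.15.

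Counts of named loci at the limit, 121 higher and 137 lower, became 28 and 881 under equal sums, 828 and 884 without a minimum, 277 and 336 above 1 FPKM, 58 and 56 above 5 FPKM in both genotypes, 368 and 412 at 1.5-fold and 36 and 63 at 3-fold. For the list genes, 4 and 3, they became 0 and 12 under equal sums, 1 and 1 above 5 FPKM in both, 12 and 5 at 1.5-fold and 0 and 1 at 3-fold, and 9 were higher without a minimum.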

Other observations

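Genes for the hormones themselves and for enzymes that make or break down steroids were also read. *Prl* and the aromatase gene *Cyp19a1*, which makes estrogen from androgens, were listed at 0 in both genotypes, as were *Hsd17b2* and *Sult1e1*. *Gh* was near 0 at 0.0508 and 0.125 FPKM. Of the 5 genes of this list above 5 FPKM, none was at 2-fold or more and the median log2 ratio was −0.03. The most abundant, *Hsd17b4*, had a ratio of −0.20. *Akr1c18*, which inactivates progesterone, had 11.3 FPKM in miR-21+/+ and 19.1 FPKM in miR-21-/- glands, a ratio of 0.76. *Hsd11b1*, which activates glucocorticoids in fat, had 34.0 and 24.2 FPKM, a ratio of −0.49. *Esrrb*, an orphan receptor related to ERα, had 0.0424 and 0.532 FPKM, both under 1 FPKM.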
